A study of Mus musculus with 8 samples.

Results

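Asparagine synthetase (*Asns*) and 9 enzymes that use glutamine or process the glutamate made from it were examined in whole kidneys collected at postnatal day 10 from *Pkd1*V/V mice and wild-type littermates. The 10 genes were taken by name, and every array probe annotated to one of them was used. This gave 12 probes of 9 genes out of 25697 probes and 16593 genes on the array, with 3 probes for *Asns*, 2 for *Glud1*, and 1 each for *Glul*, *Got1*, *Got2*, *Aldh18a1*, *Oat*, *Cad*, and *Ppat*. No probe is annotated to *Pycr1* in the table used here, so it is not analysed. *Pkd1*V/V mice are homozygous for a hypomorphic *Pkd1* allele and are labelled cystic, and the controls are 4 wild-type mice. The labels name no treatment, transgene, or sex for either genotype. Each array held total RNA of 1 kidney sample, extracted from the pellet of a kidney homogenate. Neither the labels nor the methods say whether any of the 8 kidneys shared an animal beyond naming 4 mice per genotype, and which kidneys came from the same litter is not given, so the *P*-values measure the spread between these samples.

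Glutamine carries nitrogen between organs, and its amide group is the donor for asparagine, purines, pyrimidines, and amino sugars. Once it has been turned into glutamate, the carbon can enter the TCA cycle, be passed to aspartate by transaminases, or be reduced toward proline and ornithine. In the kidney, the proximal tubule is the segment best known for taking glutamine apart, with release of ammonia. *Asns*, which moves the amide nitrogen of glutamine onto aspartate to make asparagine, is also a textbook target of ATF4, the transcription factor translated when amino acids run short or the endoplasmic reticulum is stressed.

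*Asns*, *Aldh18a1*, and *Cad* were higher in *Pkd1*V/V kidneys, and 1 of 2 *Glud1* probes was lower. The mean signal of *Asns* was 3.53 times that of the controls (5.535 times without wild-type replicate 4), that of *Aldh18a1* 2.66 times, and that of *Cad* 1.78 times. *Glul*, *Got1*, *Got2*, *Oat*, and *Ppat* did not pass the test. Over the 12 member probes, all of which were detected on enough arrays to be tested, 5 were called higher, 1 was called lower, and 6 were not called by limma at a Benjamini-Hochberg adjusted *P* under 0.1. Of the 5, *Asns* probe 3 was above background in no control and was tested only through the mutants. Among the 11 member probes detected on all 8 arrays, 4 were called higher and 1 lower. Of all 14221 probes tested, 15.2% were called higher and 14.7% lower, 29.9% in all, and all mutants were above all controls in 14.4% and below them in 13.1%. Without wild-type replicate 4 the members' counts were again 5 and 1, beside 13.5% higher and 14.3% lower, 27.8% in all. By gene, with the brightest probe of each, 3 of the 9 were called higher and 1 lower, beside 16.8% and 15.8%, or 32.6% in all, of the 9833 genes tested (30.6% without wild-type replicate 4). The median log2 difference of the 9 genes was −0.21 beside 0.02 for all genes. All differences are *Pkd1*V/V minus wild type in log2 of the quantile-normalized signal plus 16, an offset that makes differences of dim probes smaller than they are.

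In 2 kidneys transcripts of other organs stood out. Wild-type replicate 4 held transcripts of liver-secreted proteins, with 19 of the 23 liver genes on the array highest and detected in that kidney. Their summed signal was 93650 there, between 8856 and 10800 in the other controls, and between 2439 and 4242 in the mutants. Outside wild-type replicate 4 most of the sum came from the single gene *Ttr*, with 7653 to 9892 in the other controls and 1616 to 3601 in the mutants. Member probes and pathway list counts are therefore given with and without wild-type replicate 4, and cell type counts where they changed. In *Pkd1*V/V replicate 1, the signals of 8 adrenal cortex genes summed to 623.5, against 25.96 to 48.21 in the other 7 kidneys. Between 51.8 and 54.3% of the probes were detected on each array, with a median of 35 to 40 beads per probe.

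**Figure D1:**
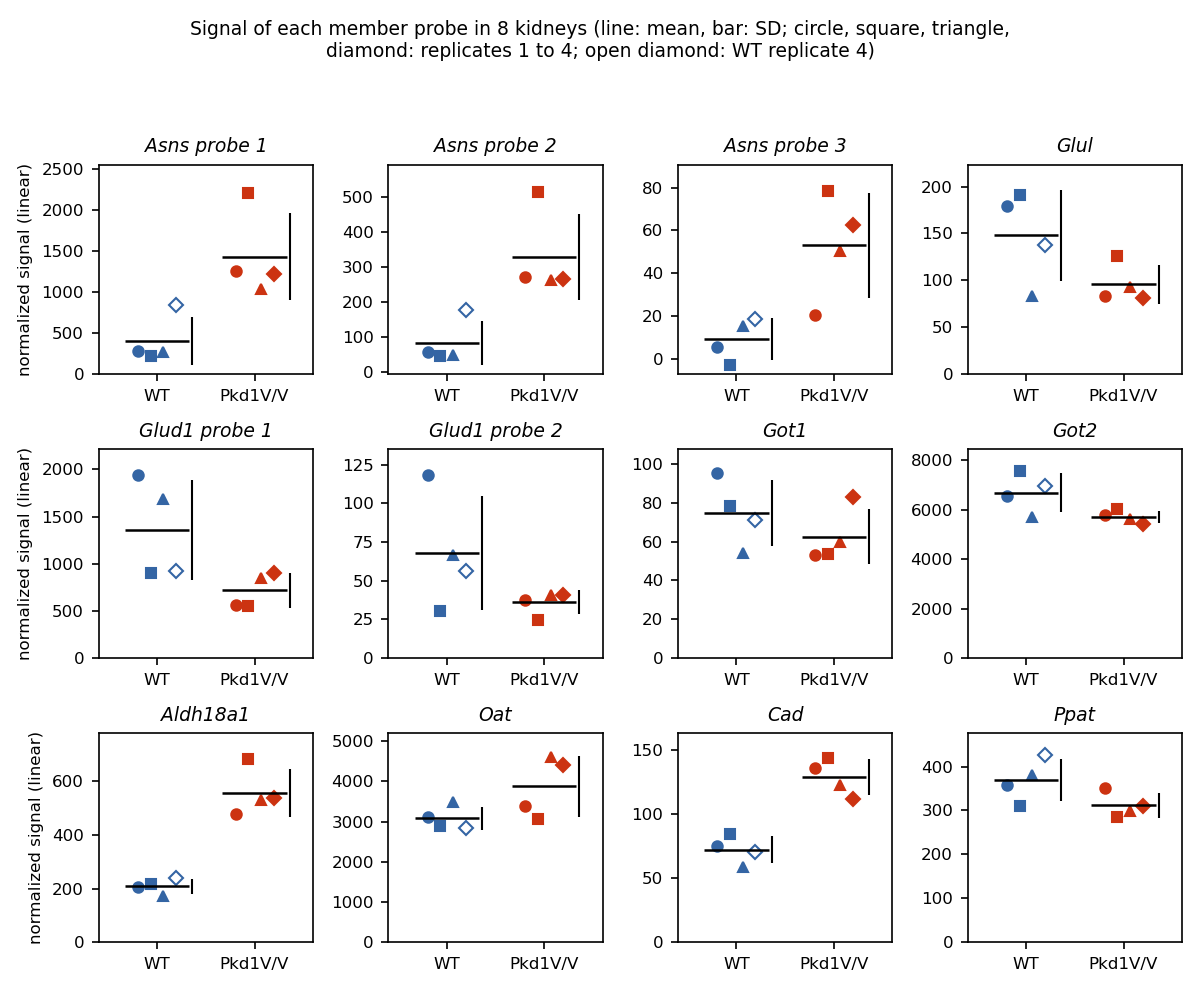
Normalized signal (linear scale) of the 12 member probes in 4 wild-type (blue) and 4 *Pkd1*V/V kidneys (red), 1 panel per probe, with a line at the mean and a bar of 1 SD. Red and blue points do not overlap for the *Asns*, *Aldh18a1*, and *Cad* probes and for *Glud1* probe 1, and the open diamond, wild-type replicate 4, lies nearest to the mutants in the first pair of *Asns* panels. For *Asns* probe 3 the nearest points, 20.65 and 18.62, were both below detection. Of all tested probes, 14.4% had all mutants above all controls and 13.1% below them.

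*Asns* (chromosome 6, 7675165 to 7693209, GRCm38.p6) was read by 3 probes, of which the brightest is called probe 1. Its signals in *Pkd1*V/V replicates 1 to 4 were 1260, 2212, 1037, and 1215, and those in wild-type replicates 1 to 4 were 284.5, 222.2, 268.8, and 846. All mutants were above all controls, *Pkd1*V/V replicate 2 was the highest mutant, and wild-type replicate 4 stood closer to the mutants than to the other 3 controls. The means were 1431 ± 529.6 (SD, n = 4) in mutants and 405.4 ± 294.9 (SD, n = 4) in controls, and the control mean without wild-type replicate 4 was 258.5 ± 32.39 (SD, n = 3). The log2 difference was 1.93 (SE 0.39, 95% interval 1.05 to 2.80, adjusted *P* = 0.00659 from limma). Without wild-type replicate 4 it was 2.34 (SE 0.25, adjusted *P* = 0.000575). The exact permutation test, two-sided, gave *P* = 0.0286, the smallest that 4 kidneys against 4 or against 3 allow.

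*Asns* probe 2 had signals of 271, 512, 263.2, and 264.4 in *Pkd1*V/V replicates 1 to 4. In the controls it read 57.29, 46.08, 46.85, and 175.6. The order of the kidneys at the top of each genotype was that of probe 1, with *Pkd1*V/V replicate 2 and wild-type replicate 4 highest. The log2 difference was 1.94 (SE 0.37, adjusted *P* = 0.00465), a ratio of means of 4.02, or of 6.54 without wild-type replicate 4 (log2 difference 2.33, SE 0.23, adjusted *P* = 0.000519). *Asns* probe 3 was dim. It was above background in 3 of 4 mutants and in 0 of 4 controls, and it entered the test only through the mutants. Its signals were 20.65, 78.36, 50.49, and 62.48 in *Pkd1*V/V replicates 1 to 4 and between −3.09 and 18.62 in the controls. With each control set to the lowest signal its array detected, the mutants were 1.76-fold higher by the log2 means, which include the offset. This fold is not a lower limit, because *Pkd1*V/V replicate 1 was also below detection and was kept at its measured 20.65.

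The promoter of *Asns* is shown because the amino acid response elements for which the gene is known lie at or directly before its start. The window runs from 250 bases before to 50 bases after the RefSeq start (GRCm38.p6, chr6:7693160-7693459, minus strand), and the capitals mark 2 motifs searched on both strands, TGATGNAA, the core of the C/EBP-ATF response element, and GTTACA, the second nutrient-sensing element as known from human *ASNS*.
Asns promoter: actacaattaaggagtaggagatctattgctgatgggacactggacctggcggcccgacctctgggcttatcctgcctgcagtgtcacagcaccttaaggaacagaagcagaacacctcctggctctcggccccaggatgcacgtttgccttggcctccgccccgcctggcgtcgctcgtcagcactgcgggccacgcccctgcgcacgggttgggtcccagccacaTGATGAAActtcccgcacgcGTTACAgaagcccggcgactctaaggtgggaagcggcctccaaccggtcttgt
The response element core lies 23 to 16 bases before the start, and the second element spans the start. Of 32851 promoter windows of the same length in the table, 3.97% hold TGATGNAA, 8.25% hold GTTACA, and 0.694% hold both. A promoter window was found for all 10 member genes, and besides *Asns* the core was present in those of *Got1* (on the opposite strand) and *Pycr1*, shown here with the match in capitals because they share those letters with *Asns*.
Got1 site, chr19:43524689-43524718: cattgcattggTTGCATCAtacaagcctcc
Pycr1 site, chr11:120643833-120643862: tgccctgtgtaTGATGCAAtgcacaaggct
These matches are descriptions of the letters only. Sequence outside the windows was not searched, and whether any match has a part in the differences between genotypes was not tested.

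The proline and ornithine branch held the second of the 3 genes that rose. *Aldh18a1* (chromosome 19, 40550257 to 40588463) encodes pyrroline-5-carboxylate synthase, which turns glutamate into the precursor of proline and ornithine in the mitochondrion. Its signals were 476.5, 682.4, 529.4, and 538.3 in *Pkd1*V/V replicates 1 to 4 and 206.5, 217.1, 173.7, and 241.4 in wild-type replicates 1 to 4. The groups were well apart, and wild-type replicate 4 was the highest control but lay close to the others. The means were 556.7 ± 88.15 and 209.7 ± 28.08 (SD, n = 4 each), a log2 difference of 1.34 (SE 0.15, 95% interval 1.01 to 1.67, adjusted *P* = 0.000358), and 1.41 (SE 0.16, adjusted *P* = 0.000743) without wild-type replicate 4. *Aldh18a1* was the only member whose promoter window held an E-box, CACGTG, the letters bound by MYC and other basic helix-loop-helix factors, which 7.15% of all windows hold. It is shown in capitals, 59 to 54 bases before the start.
Aldh18a1 site, chr19:40588506-40588533: gagggggccgcCACGTGgagcgtgggcg

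*Oat* (chromosome 7, 132557475 to 132576398) encodes ornithine aminotransferase, which links ornithine to the same pyrroline-5-carboxylate pool. It read 3398, 3071, 4614, and 4421 in the mutants and 3124, 2888, 3478, and 2848 in the controls. *Pkd1*V/V replicates 3 and 4 were above every control, while replicates 1 and 2 lay among them. The log2 difference was 0.31 (SE 0.16, 95% interval −0.04 to 0.66, adjusted *P* = 0.191), and 0.28 (adjusted *P* = 0.307) without wild-type replicate 4. *Oat* passed the test only when *Pkd1*V/V replicate 2 was left out (0.42, adjusted *P* = 0.0881) or when arrays were weighted (0.42, adjusted *P* = 0.0255).

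The nucleotide branch was split. *Cad* (chromosome 5, 31054620 to 31078479) encodes the trifunctional enzyme that begins pyrimidine synthesis with the amide nitrogen of glutamine. Its signals were 136.1, 143.9, 122.9, and 112 in *Pkd1*V/V replicates 1 to 4 and 75.11, 84.44, 58.75, and 70.6 in wild-type replicates 1 to 4. No kidney stood apart within either genotype, and the groups did not overlap. The means were 128.7 ± 14.1 and 72.22 ± 10.67 (SD, n = 4 each), a log2 difference of 0.72 (SE 0.13, 95% interval 0.42 to 1.01, adjusted *P* = 0.00406), and 0.71 (SE 0.15, adjusted *P* = 0.0105) without wild-type replicate 4.

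*Ppat* (chromosome 5, 76913249 to 76951578), the amidotransferase that commits glutamine nitrogen to purine synthesis, did not follow *Cad*. It read 351.7, 285.6, 299.2, and 310.6 in the mutants and 358.8, 309.5, 381.8, and 425.2 in the controls. The groups overlapped, and the highest signal was in wild-type replicate 4. The log2 difference was −0.23 (SE 0.13, 95% interval −0.52 to 0.06, adjusted *P* = 0.252), and −0.16 (adjusted *P* = 0.456) without that kidney. The upper end of its interval was below the lower end of that of *Cad*.

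Glutamate handling ran lower or was not called. *Glud1* (chromosome 14, 34310727 to 34345033) encodes glutamate dehydrogenase, which feeds glutamate carbon into the TCA cycle as 2-oxoglutarate. Probe 1 read 568.6, 554.2, 849.5, and 899.4 in *Pkd1*V/V replicates 1 to 4 and 1944, 905.6, 1682, and 918.9 in wild-type replicates 1 to 4. All mutants were below all controls, but the gap between 899.4 and 905.6 was narrow, and the controls split into a high and a low pair. The log2 difference was −0.86 (SE 0.28, 95% interval −1.49 to −0.23, adjusted *P* = 0.0541), and −1.02 (SE 0.29, adjusted *P* = 0.0350) without wild-type replicate 4. Leaving out 1 kidney ended this call in 4 cases, which were *Pkd1*V/V replicate 1 (adjusted *P* = 0.118) and 2 (0.126) and wild-type replicate 1 (0.129) and 3 (0.141).

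*Glud1* probe 2 read 37.79, 24.59, 40.78, and 41.05 in the mutants and 118, 30.71, 66.51, and 56 in the controls. It had the sign of probe 1, with overlapping groups, and did not pass the test (log2 difference −0.60, SE 0.28, adjusted *P* = 0.160). Without wild-type replicate 4 the difference was −0.64 (adjusted *P* = 0.190), and without wild-type replicate 2, the lowest control, it passed (−0.85, adjusted *P* = 0.0349).

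*Glul* (chromosome 1, 153899929 to 153909723) encodes glutamine synthetase, which makes glutamine from glutamate and ammonia. Its signals were 83.07, 126, 93.06, and 81.34 in the mutants and 179, 191.6, 83.11, and 138 in the controls. Wild-type replicate 3 lay among the mutants, and the other 3 controls were above all of them. The log2 difference was −0.51 (SE 0.23, 95% interval −1.04 to 0.01, adjusted *P* = 0.153), and −0.52 (adjusted *P* = 0.203) without wild-type replicate 4. Leaving out wild-type replicate 3 alone brought it past the test (−0.74, adjusted *P* = 0.0246).

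The transaminases that exchange nitrogen between glutamate and aspartate, the substrate of *Asns*, were not called. The cytosolic *Got1* (chromosome 19, 43499752 to 43524605) read 53.35, 53.69, 59.79, and 83.19 in the mutants and 95.49, 78.3, 54.04, and 71.22 in the controls. The mitochondrial *Got2* (chromosome 8, 95864133 to 95888401) read 5792, 6027, 5621, and 5430 in the mutants and 6547, 7580, 5691, and 6977 in the controls. The groups overlapped for both genes, for *Got2* through wild-type replicate 3 alone. The log2 differences were −0.21 (95% interval −0.60 to 0.18, adjusted *P* = 0.447) for *Got1* and −0.22 (95% interval −0.49 to 0.05, adjusted *P* = 0.230) for *Got2*, and −0.22 (adjusted *P* = 0.483) and −0.20 (adjusted *P* = 0.343) without wild-type replicate 4. *Got2* was called lower by SAM with the *delta* of the methods and with array weights (−0.23, adjusted *P* = 0.0888).

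**Figure D2:**
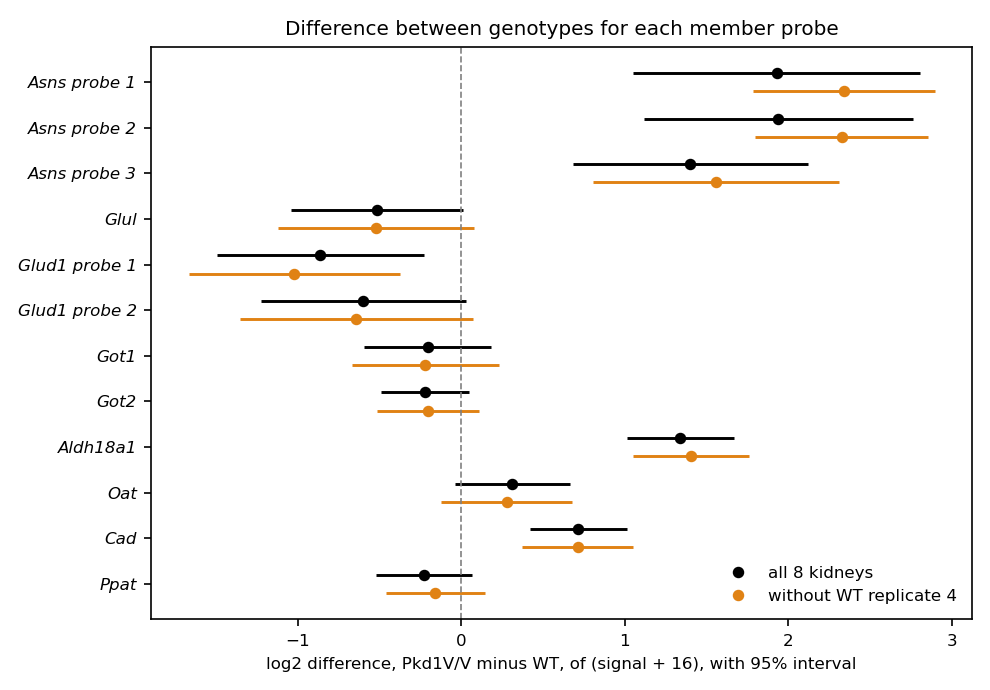
Log2 difference (*Pkd1*V/V minus wild type, of signal plus 16) of each member probe with its 95% interval, from all 8 kidneys (black) and without wild-type replicate 4 (orange). Leaving out that kidney moved the *Asns* probes 1 and 2 from 1.93 and 1.94 to 2.34 and 2.33, and no probe changed its sign or its call.

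Beside *Asns*, 3 of the 8 other measured enzymes had a difference of the same sign (*Aldh18a1*, *Cad*, and *Oat*) and 5 of the opposite sign (*Glul*, *Glud1*, *Got1*, *Got2*, and *Ppat*), of which only *Aldh18a1*, *Cad*, and *Glud1* passed the test. Whether *Asns* changed more than each of them was tested within each kidney, as the log2 value of *Asns* minus that of the other enzyme, by an exact permutation test in 8 comparisons without adjustment. In these exact tests the change of *Asns* exceeded that of *Glud1* by 2.79, *Glul* by 2.44, *Ppat* by 2.15, *Got2* by 2.15, and *Got1* by 2.13 log2 units, each with all mutants beyond all controls and *P* = 0.0286. *Asns* probe 1 alone gave the same *P* in the exact permutation test, so these 5 contrasts largely repeat its own difference. Against *Oat* (1.62, *P* = 0.0857), *Cad* (1.21, *P* = 0.114), and *Aldh18a1* (0.59, *P* = 0.229), the kidneys overlapped in the exact permutation test. Wild-type replicate 4 made this overlap, since without it all 8 contrasts separated the genotypes, with 0.94 for *Aldh18a1*, 1.63 for *Cad*, and 2.06 for *Oat* (exact permutation test, *P* = 0.0286 each, the smallest 4 against 3 allow). Without that kidney *Asns* probe 1 alone again gave *P* = 0.0286 in the exact permutation test. These 8 contrasts therefore also largely repeat its own difference.

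The 5 probes whose profile over the 8 kidneys was most like that of *Asns* probe 1 were sought among 13401 tested probes with a gene name, by the root mean square difference of mean-centred log2 values. *Asns* probe 2 was the nearest (0.0966). *Slc7a5* (0.334), the large neutral amino acid carrier LAT1, was next. *Rgs16* (0.375), a regulator of G protein signalling, *Mthfd2* (0.379), a mitochondrial folate enzyme, and *Tent5b* (0.38), a poly(A) polymerase family member, followed. *Slc7a5* read 990, 1309, 664.1, and 802.3 in the mutants and 129.2, 160, 125.9, and 307.6 in the controls, and *Mthfd2* read 124.6, 208.2, 137, and 158.6 against 42.48, 35.48, 31.72, and 78.69. All 5 probes were highest in *Pkd1*V/V replicate 2 among the mutants and in wild-type replicate 4 among the controls, which choosing them for their likeness to *Asns* nearly fixed.

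**Figure D3:**
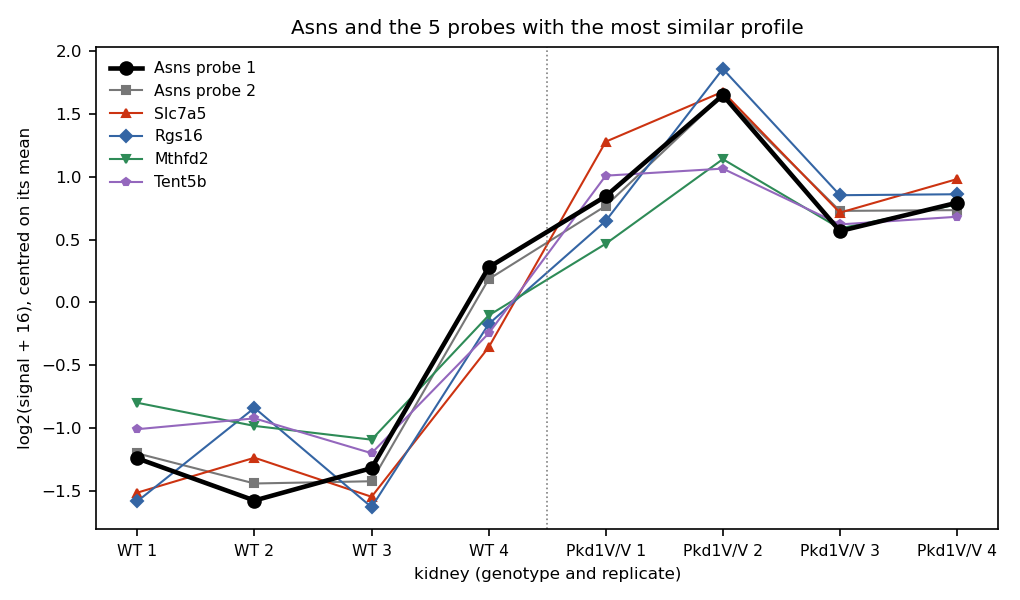
Log2 of signal plus 16, centred on each probe's mean over the 8 kidneys, for *Asns* probe 1 (black) and the 5 probes nearest to it. Lines only join the points of a probe, and in each of them wild-type replicate 4 is the highest control and *Pkd1*V/V replicate 2 the highest mutant.

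Genes of the ATF4 response other than *Asns* were called higher more often than lower, and 15 were not called. Of 30 on the array 26 were tested, and 10 were called higher and 1 lower, or 42.3% in all. Of all genes tested 16.8% were called higher and 15.8% lower, 32.6% in all. The median log2 difference was 0.43 beside 0.02 for all genes. Without wild-type replicate 4 the counts were 12 and 1, beside 15.2% higher and 15.4% lower of all genes. In this and the following lists, each called gene that is given with its log2 difference kept its sign and its call without that kidney. The smallest adjusted *P* among those that rose were those of *Slc7a5* (log2 difference 2.33, SE 0.29, adjusted *P* = 0.000539), *Psat1* of serine synthesis (0.84, SE 0.13, adjusted *P* = 0.00143), and *Mthfd2* (1.49, SE 0.23, adjusted *P* = 0.00162). The other 7 that rose were *Eif4ebp1*, which encodes an inhibitor of cap-dependent translation, the transcription factors *Atf3* and *Cebpb*, the stress-induced mTORC1 inhibitor *Ddit4*, and the tRNA synthetases *Aars*, *Gars*, and *Wars*. *Cth*, which makes cysteine from cystathionine, fell by 1.62 (SE 0.34, adjusted *P* = 0.00767).

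Several genes that are known from the same response were not called, and the following were picked after their values had been seen. The transcript of *Atf4* itself read 436.4, 291, 197.1, and 508.6 in the mutants and 495, 181.5, 142.1, and 516.7 in the controls (log2 difference 0.22, adjusted *P* = 0.759), with wide overlap of the genotypes. ATF4 is regulated largely at translation, which these arrays do not measure. *Chac1*, which degrades glutathione, read 135.1, 942.9, 101.9, and 223.5 in the mutants and 30.44, 43.58, 27.04, and 269.6 in the controls. Again *Pkd1*V/V replicate 2 and wild-type replicate 4 were the highest, and the difference of 1.73 (adjusted *P* = 0.123) became 2.37 (adjusted *P* = 0.0247) without the latter. *Atf5* read 619.9, 848.3, 500.1, and 664.6 in the mutants and 325, 331.4, 337.6, and 1205 in the controls. Wild-type replicate 4 thus lay above every mutant. The *Atf5* difference of 0.48 (limma, adjusted *P* = 0.413) became 0.93 (adjusted *P* = 0.00581) without that kidney. *Ddit3* (−0.25, adjusted *P* = 0.476) and *Trib3* (0.38, adjusted *P* = 0.242), both markers of a strong stress response, were not called either. Leaving out 1 mutant brought *Ddit3*, *Trib3*, and *Chac1* past the test, replicate 2 for *Ddit3* (−0.48, adjusted *P* = 0.0775), replicate 4 for *Trib3* (0.54, adjusted *P* = 0.0842), and replicate 3 for *Chac1* (2.09, adjusted *P* = 0.0897).

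Among 8 tested genes of the other glutamine-using enzymes, 1 was called higher and 2 lower, or 37.5% beside 32.6% of all genes, and their median was −0.19. Without wild-type replicate 4 the counts were 1 and 3. *Ctps*, which makes CTP from UTP with glutamine nitrogen, read 1875, 1999, 1677, and 1596 in the mutants and 766.9, 817, 758.8, and 567.9 in the controls. Its groups were far apart (log2 difference 1.28, SE 0.14, adjusted *P* = 0.000333). *Gatb*, a subunit of the mitochondrial glutamyl-tRNA amidotransferase, fell by 0.53 (adjusted *P* = 0.0425), a call lost without wild-type replicate 2 (0.105), and the NAD synthetase *Nadsyn1* fell by 0.53 (adjusted *P* = 0.0967), a call lost without any of 6 single kidneys (0.158 to 0.214). The de novo purine and pyrimidine enzymes, which share *Ctps*, had 7 of 16 called higher and 1 lower (50% in all), or 6 and 1 without wild-type replicate 4, and a median of 0.20. The trifunctional purine enzyme *Gart* (0.53, adjusted *P* = 0.0109) and *Atic* (0.49, adjusted *P* = 0.0136), which completes IMP, rose with *Ctps*. Of the pair that makes adenylosuccinate, *Adssl1* fell by 0.73 (adjusted *P* = 0.0284) and *Adss* had a difference of 0.16 (adjusted *P* = 0.715).

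Enzymes of glutamate, aspartate, proline, and ornithine other than the members had 1 of 18 called higher, *Psat1*, and 9 lower (55.6% in all), with a median of −0.38, or 1 and 8 of 17 without wild-type replicate 4. Beside them, 16.8% of all genes tested were called higher and 15.8% lower, 32.6% in all, and 30.6% in all without that kidney. *Aldh4a1*, which oxidizes the pyrroline-5-carboxylate that *Aldh18a1* makes, read 1778, 2041, 2112, and 2262 in the mutants and 4878, 4936, 3797, and 4779 in the controls (log2 difference −1.16, SE 0.13, adjusted *P* = 0.000357). The hydroxyproline dehydrogenase *Prodh2* fell by 1.95 (SE 0.23, adjusted *P* = 0.000411), and the proline dehydrogenase *Prodh* had a difference of −0.33 (adjusted *P* = 0.266). The GABA transaminase *Abat* fell by 1.35 (SE 0.12, adjusted *P* = 0.000133).

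Carriers of glutamine, glutamate, and aspartate moved both ways, with 4 of 16 called higher and 6 lower (62.5% in all), and the same counts without wild-type replicate 4. Over all genes tested the shares were 16.8% higher and 15.8% lower, 32.6% in all, and 30.6% in all without that kidney. The apical neutral amino acid carrier *Slc6a19* of the proximal tubule read 72.15, 98.91, 116.3, and 123.4 in the mutants and 528.1, 380.1, 505.1, and 457.6 in the controls (log2 difference −2.04, SE 0.17, adjusted *P* = 0.00012). The glutamate carrier *Slc1a1* fell by 1.66 (SE 0.15, adjusted *P* = 0.000132) and *Slc7a8*, a basolateral exchanger, by 1.06 (SE 0.14, adjusted *P* = 0.000772). Besides *Slc7a5*, the amino acid carriers *Slc38a4* (0.89, SE 0.20, adjusted *P* = 0.00932) and *Slc7a6* (0.67, SE 0.18, adjusted *P* = 0.0232) rose.

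**Figure D4:**
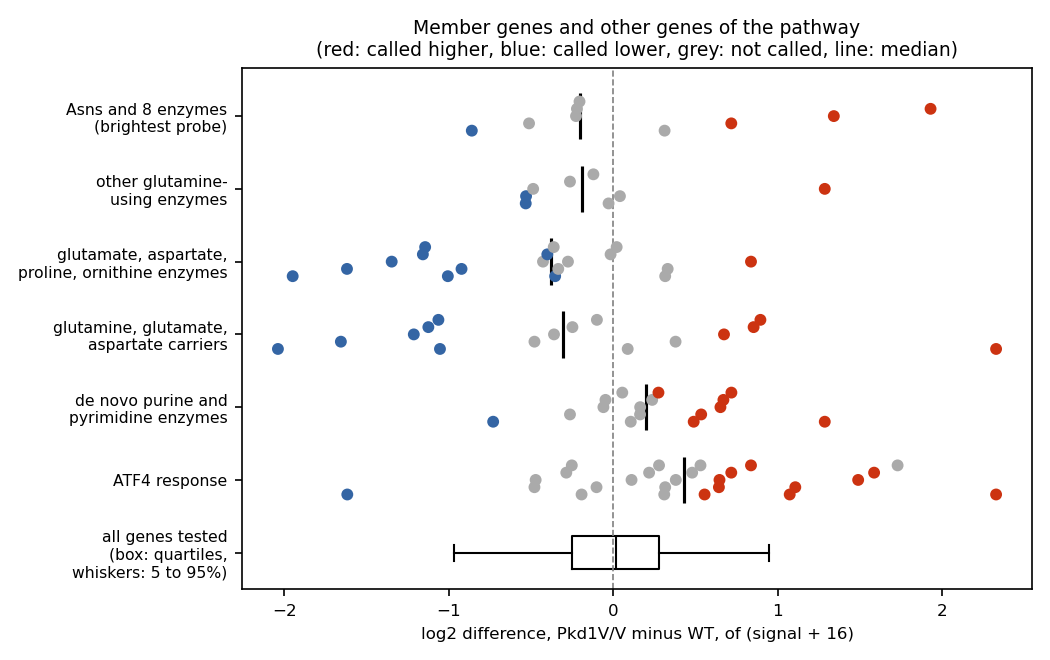
Log2 difference (*Pkd1*V/V minus wild type, of signal plus 16) of each tested gene of the members and of the 5 other lists, with the median as a line, beside a box of all 9833 tested genes. The medians are −0.21, −0.19, −0.38, −0.30, 0.20, and 0.43 from top to bottom, and 0.02 for all genes.

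Many cell type markers moved with the same contrast, and in whole-kidney RNA fewer cells of a type and less RNA per cell cannot be told apart. Over all genes tested 16.8% were called higher and 15.8% lower. Of 19 tested proximal tubule markers 17 were called lower and 0 higher, with sums of 21 genes of 14140 to 25820 in mutants and 55230 to 63500 in controls, and 20 of the 21 were detected on some array. The straight segment had 4 of 6 lower and 1 higher, the thick ascending limb 6 of 7 lower, and the distal convoluted tubule 3 of 4 lower. Podocytes had 2 of 3 lower, endothelium 6 of 9 lower (7 without wild-type replicate 4), and erythroid cells 2 of 3 lower. Intercalated cells had 2 of 6 lower, or 33.3% called beside 32.6% of all genes tested. The probe of *Slc4a1* counts as a lower call in both the intercalated and the erythroid list. All 12 tested macrophage and leukocyte markers were higher, with sums from 5941 to 27980 in mutants, highest in *Pkd1*V/V replicate 1, and from 2347 to 2845 in controls. Principal cells had 6 of 9 higher, fibroblasts and matrix 7 of 12 higher and 3 lower, and proliferation 7 of 13 higher, or 3 without wild-type replicate 4. Proliferation markers summed to 6363 to 9576 in mutants and to 4657 to 6878 in controls. The part of any of these in the differences of the member genes was not tested.

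Markers of liver and pancreas are given too, since tissue of either organ can hold transcripts of *Glul*, *Oat*, or *Asns*. Of 11 tested liver genes 4 were called lower and 0 higher, and without wild-type replicate 4, 5 of 10 lower and 1 higher. In that kidney *Ahsg*, which encodes the plasma protein fetuin-A, read 14250 beside a mean of 3.66 in the other controls. Its *Asns* signal of 846 was the highest of the controls, its *Oat* signal of 2848 was the lowest of the 8 kidneys, and its *Glul* signal of 138 lay below those of wild-type replicates 1 and 2. Whether the liver transcripts had a part in these signals was not tested. Of 15 pancreas acinar genes on the array 11 were detected on no array, 1 was tested and called lower, and their sum in wild-type replicate 4 was 451.3, below 629 to 1442 in the other controls. Of 8 adrenal cortex genes 1 was tested and not called. Of 8 tested reference genes 5 were called higher, with a median of 0.55 over the 8. Values read relative to the 5 would lie lower than those given here. *Gapdh* (log2 difference 0.08), *Tbp* (−0.12), and *B2m* (0.59) were not called, so the shift depends on the gene chosen. Sex-linked genes placed 1 kidney of each genotype, *Pkd1*V/V replicate 3 and wild-type replicate 2, apart from the other 6, and 0 of 4 were called.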

How the data were processed

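Total RNA of 8 kidneys, 4 per genotype, was hybridized to Illumina MouseRef-8 v2.0 arrays. The authors deposited, for each array, background-subtracted signal intensities without normalization between arrays, with a detection p-value per probe made by a step not given in the sources used here. The deposited table also gives a count of beads and their standard error, and a second deposited table holds the authors' quantile-normalized intensities, which were used as an alternative. The supplement's description codes the fourth mutant differently from the labels and the table headers, which were followed here. Per-sample columns left unused numbered 0. Slides and probe sequences are not given in the sources used here.

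Quantile normalization was followed by a floor of 0, and log2 was taken after adding 16 to each signal. Probes with a detection p-value under 0.05 on at least 3 of 8 arrays were tested, 14221 in all. Gene symbols came from the platform annotation (1 symbol for 23978 probes, none for 1719), updated through gene identifiers for 23962 probes. A linear model with moderated variances (limma 3.58.1, R 4.3.3) was fitted per probe for the members and with the brightest probe of each of 9833 genes for the lists. P-values were adjusted over all probes or all genes by the method of Benjamini and Hochberg and called under 0.1, the false discovery rate of the methods. Single values were compared by exact two-sided permutation over the 70 splits. The procedure was tested on simulated data.

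The members and lists were chosen with earlier results of these data known. The lists were other glutamine-using enzymes, glutamate, aspartate, proline and ornithine enzymes, carriers, de novo purine and pyrimidine enzymes, the ATF4 response, and markers of the cell types and tissues given above. Every member probe is named, and of each pathway list up to 3 higher and 3 lower called genes with the smallest adjusted *P*. Promoter windows are RefSeq sequences of GRCm38.p6. Alternatives were other offsets, scalings, filters and thresholds, each kidney left out, the kidneys with liver and with adrenal transcripts left out together, array weights, the replicate block, the methods' *t*-test and SAM, and the authors' table. The number of arrays limits the precision.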

Additional observations from a re-analysis of the deposited data

Results flagged for a closer look

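Of 24 groups of 4 kidneys, 1 per member probe and genotype, 2 held a kidney far from the other 3, both for *Asns* probe 2. *Pkd1*V/V replicate 2 lay above the other mutants by 0.956 of the group's range, and wild-type replicate 4 lay above the other controls by 0.853 of it, both past Dixon's critical value for 4 samples at the 95% level. Chance alone marks about 1 in 20 such groups.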

How the results depend on the processing

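Over 22 alternatives the log2 difference of *Asns* probe 1 lay between 1.70 and 2.37 with an adjusted *P* of at most 0.0481, and each kept its call, as did those of probe 2 (21 alternatives). Those of *Aldh18a1* and *Cad* kept their calls as well. Of 766 single-probe or single-gene values, 731 kept their sign and their side of the threshold, 20 lost a call, and 14 gained one. The value of *Atf4*, not called in any of these, changed sign without wild-type replicate 3, and ran from −0.10 to 0.49 with 1 kidney left out. The 20 lost calls were those of *Glud1* probe 1, *Gatb*, and *Nadsyn1*. The number of member probes called higher was 3 instead of 5 with 1 probe per gene, by construction, 4 among probes detected on all 8 arrays, 6 with array weights, which added *Oat*, and 4 to 5 with 1 kidney left out. *Asns* probe 3 passed the detection filter through the mutants alone and was not tested without *Pkd1*V/V replicate 2, 3, or 4. The number called lower was 1, and 0 to 2 with 1 kidney left out. It was 0 without the filter, at an adjusted *P* under 0.05, and by the methods' *t*-test after Benjamini-Hochberg adjustment. It was 2 with array weights, which added *Got2*. Beside these counts, 29.9% of all probes tested were called in the main setting, and 23.9% to 27.8% with 1 kidney left out. The share was 32.6% with 1 probe per gene, 32% among probes detected on all 8 arrays, and 34.4% with array weights. Without the filter 14.7% were called, at an adjusted *P* under 0.05 22.8%, and by the methods' *t*-test after adjustment 27.3%. The causes were not tested. Counted by probe instead of by gene, which enlarges the lists, the other glutamine-using enzymes had 3 higher and 4 lower instead of 1 and 2, the carriers 10 lower instead of 6, and the de novo purine and pyrimidine enzymes 11 higher and 2 lower instead of 7 and 1.

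SAM with the *delta* of the methods called 5 member probes higher and 1 lower, *Got2*, where limma called *Glud1* probe 1. Over all 25697 probes SAM called 2756 higher and 2580 lower. Nothing says that replicate numbers pair mutants with controls. Deviations of same-numbered kidneys correlated at −0.247, 0.32, 0.211, and −0.277, and with the replicate number as a block 2 member probes were lower instead of 1, *Glud1* probe 2 being the addition (adjusted *P* = 0.0958), and 1871 probes of all were higher and 1879 lower instead of 2166 and 2087. The slide could not be used as a block because the files name none. With 4 arrays per genotype, the 95% interval of *Glul* reached from −1.04 to 0.01 and that of *Oat* from −0.04 to 0.66, so neither sign is excluded for them at this number of arrays.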
